A study of Danio rerio with 2 samples.

Results

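The members described here are 1270 open chromatin regions that lie near the ends of zebrafish chromosomes. A region was formed by merging peaks of both replicate lists that overlapped by at least 1 bp, and it was kept when each list gave it a peak. It counted as a member when its midpoint lay within 2 Mb of position 0 or of the last peak end of its chromosome. Chromosomes 1 to 25 were used without chromosome 4, which left 13267 shared regions on 24 chromosomes, of 13698 on all 25. Of the members, 619 lay in the first 2 Mb and 651 in the last 2 Mb, and the other 11997 regions formed the interior. The members made up 9.57% of the shared regions on 7.60% of the length.

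The data come from ATAC-seq, in which a transposase cuts accessible DNA and inserts sequencing adapters. The cells were sorted by flow cytometry as CD41+gata1- from the double reporter line Tg(CD41:GFP,gata1:dsRed), and the labels name them hematopoietic stem cells. The sample titles read HPSC instead. There was 1 group of 2 replicates, each begun with 50000 cells and amplified over 11 PCR cycles, and a tag of 3m in the titles is not spelled out. Whether separate animals or sorts gave the replicates is not stated in the labels, so their spread may be technical. No untreated or second group was analysed here, and the sort was not checked against marker genes.

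The lists differ in depth. They held 33700 nuclear peaks in replicate 1 and 15814 in replicate 2, over a genome-wide background of 1.32 and 0.578 extended reads per position. Within 2 Mb of the ends of the 24 chromosomes lay 2932 peaks of replicate 1 and 1441 of replicate 2. All positions are in GRCz10, counted from 1.

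Chromosomes end in telomeres, short repeats bound by protective proteins that keep the ends from being treated as breaks. The subtelomeres next to them often hold repeats and duplicated segments, and short reads from such sequence are hard to assign to 1 place. In yeast and some other organisms, genes placed next to a telomere can be silenced by chromatin that spreads from it. Farther in, the distal parts of vertebrate chromosomes are often rich in genes and in recombination. Open sites seen by ATAC-seq are mostly promoters, enhancers and other sites where proteins displace nucleosomes.

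The end windows held 13.2 shared regions per Mb, and the interior held 10.3. The ratio was 1.29 (95% exact interval 1.21 to 1.36). Replicate 1 alone gave 30.5 peaks per Mb near the ends and 25.4 in the interior, a ratio of 1.20 (95% exact interval 1.16 to 1.25). In replicate 2 these densities were 15 and 11.9, with a ratio of 1.26 (95% exact interval 1.20 to 1.33). Both libraries therefore gave the same direction. Shared regions covered 0.667% of the end windows and 0.510% of the interior.

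These intervals, and those below on shares and densities, cover counting error only. No test between the ends and the interior was made, because regions of 2 libraries are not replicates and a surplus at the ends was known from these data when the windows were chosen.

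The surplus lay close to the ends. Within 0.5 Mb of an end there were 496 members, which made up 3.74% of all shared regions on 1.9% of the chromosome length. Their density was 20.7 per Mb (95% exact interval 18.9 to 22.6), which is 2.01 times that of the interior (1.83 to 2.20). From 0.5 to 2 Mb the other 774 members had a density of 10.8 per Mb (10.0 to 11.5), or 1.05 times that of the interior (0.971 to 1.12). The second interval, of counting error alone, includes 1. Its outer step from 0.5 to 1 Mb alone stood at 1.14 times the interior (1.01 to 1.28).

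In steps, the density of shared regions was 25.4 per Mb within 0.1 Mb of an end, 21.9 from 0.1 to 0.25 Mb and 18.0 from 0.25 to 0.5 Mb. It was 11.7 per Mb from 0.5 to 1 Mb, 11.0 from 1 to 1.5 Mb and 9.54 from 1.5 to 2 Mb. Beyond the windows it was lowest from 3 to 5 Mb, at 8.71 per Mb, and was 10.7 per Mb at more than 10 Mb from either end. The distal 10 Mb of a chromosome was therefore not dense throughout. Counted over 2 to 10 Mb only, the regions had a density of 9.39 per Mb (95% exact interval 9.08 to 9.70).

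Each library alone showed the same shape. Replicate 1 had 42.8 peaks per Mb within 0.5 Mb of an end and 26.4 from 0.5 to 2 Mb, against 25.4 in the interior. Replicate 2 had 23.1, 12.3 and 11.9 per Mb in the same order. Peaks found in 1 library only were also dense there. Those of replicate 1 alone had 21.25 per Mb within 0.5 Mb of an end against 14.8 in the interior. Those of replicate 2 alone had 2.38 against 1.46.

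**Figure D1:**
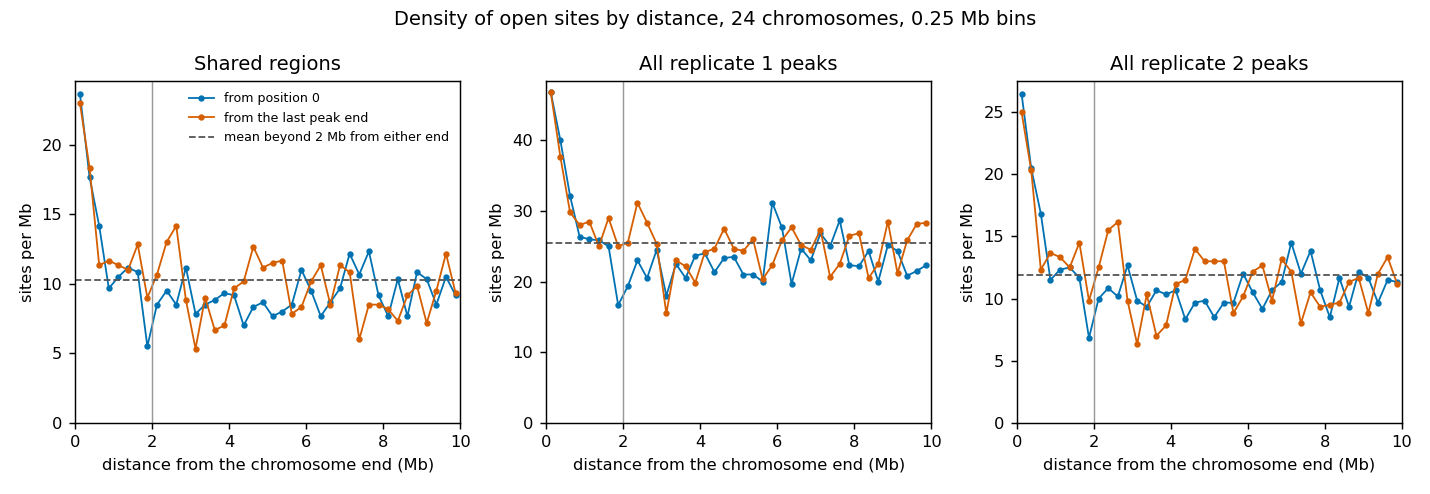
Sites per Mb in bins of 0.25 Mb against the distance from the chromosome end in Mb, summed over 24 chromosomes, for shared regions and for all peaks of each replicate. Blue is counted from position 0 and orange from the last peak end; the dashed line is the density beyond 2 Mb from either end, and the grey line marks 2 Mb. Shared regions start at 23.7 and 23.0 per Mb in the outermost bin and come near the dashed line by 1 Mb.

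Starts and ends of the chromosomes had similar densities. The first 2 Mb held 12.9 shared regions per Mb and the last 2 Mb 13.6, a ratio of 0.951 (95% exact interval 0.850 to 1.06). Within 0.5 Mb both sides held 248 shared regions. From 1.5 to 2 Mb the start side held 98 and the last side 131, the largest gap among the 4 steps of 0.5 Mb. On 12 chromosomes the first window held more shared regions than the last, and on the other 12 it held fewer. With windows of 3 Mb the ratio was 0.908, and its interval of 0.826 to 0.997 lay below 1.

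The sides are not measured from the same kind of point. Position 0 is the start of the assembled sequence, whereas the last position is the last peak seen, so a peak always lies at the last end. The outermost shared region lay a median of 30.5 kb from position 0, with a range from 0.320 to 337 kb. From the last peak end the median was 11.6 kb, with a range from 0.125 to 479 kb. The last peak end came from replicate 1 on 17 chromosomes and from replicate 2 on 7. On 9 chromosomes the last peak was itself part of a shared region. Leaving out the outermost 0.1 Mb of every window gave a ratio of ends to interior of 1.22 (95% exact interval 1.15 to 1.30).

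Chromosome by chromosome, 20 of 24 held more shared regions per Mb in their end windows than in their own interior. The count was also 20 in each replicate alone. The ratio had a median of 1.30 over chromosomes and ran from 0.772 on chromosome 7 to 1.94 on chromosome 10. Chromosomes 5, 7, 16 and 24 were below 1. Within 0.5 Mb of the ends, all 24 chromosomes were denser than their interior in shared regions and in replicate 1 peaks. In replicate 2 peaks 23 were, and chromosome 7 was at 0.988. The ratio in shared regions at this distance had a median of 1.89, from 1.03 on chromosome 7 to 4.07 on chromosome 10.

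Across chromosomes, the count in the first window and the count in the last window had a Spearman correlation of 0.0116 (n = 24 chromosomes, whose windows share both libraries). In these counts a dense start did not go with a dense end. The length of the chromosome and the ratio within 0.5 Mb had a Spearman correlation of -0.430 over the same chromosomes. The numbers of replicate 1 and replicate 2 peaks per window had a Spearman correlation of 0.875 over 48 windows. These are descriptions over windows of the same 2 libraries.

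**Figure D2:**
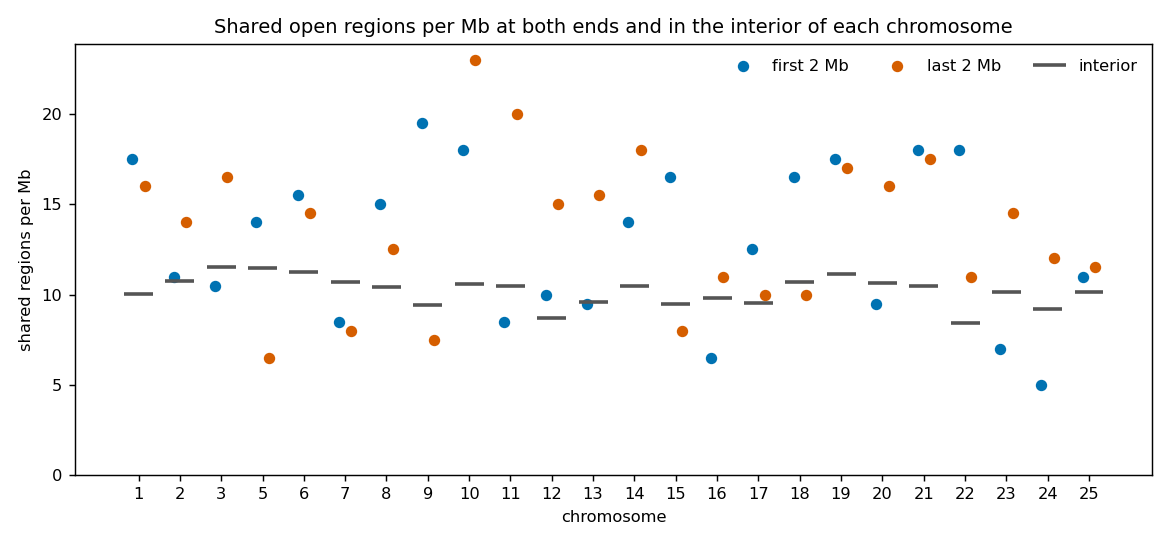
Shared open regions per Mb (vertical axis) on each of 24 chromosomes (horizontal axis) in the first 2 Mb (blue points), the last 2 Mb (orange points) and the interior (grey bars). End windows run from 5 per Mb at the start of chromosome 24 to 23 per Mb at the end of chromosome 10, while the interiors stay between 8.43 and 11.5.

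Among the 48 end windows, 35 were denser than the interior of their chromosome, 16 at the start and 19 at the end. Counts ran from 10 to 46 shared regions per window with a median of 28. Whole 2 Mb windows laid over the interior held between 1 and 51, with a median of 20. The end windows therefore lay within the range of the interior, with a higher centre. In 32 of 48 windows the outermost 0.5 Mb held at least as many shared regions as any other 0.5 Mb of the window.

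The outermost 0.5 Mb held from 2 to 25 shared regions, and 23 of 48 such stretches held 10 or more, or 47.9%. Of 2320 stretches of the same size in the interior, 286 held 10 or more, or 12.3%. None of the 48 outermost stretches was empty, whereas 155 of the interior stretches were, or 6.68%. Of 144 stretches from 0.5 to 2 Mb, 11 were empty, or 7.64%. Of the 24 outermost stretches of the first side, which are not measured from a peak, 0 were empty. The 24 outermost stretches of the last side are measured from a peak, and interior stretches include unmasked assembly gaps. The contrast in empty stretches may therefore be partly built in, which was not tested.

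The last 2 Mb of chromosome 10 was the densest window, with 46 shared regions from 94 peaks of replicate 1 and 49 of replicate 2. The last window of chromosome 11 held 40 and the first window of chromosome 9 held 39. At 36 each, the first windows of chromosomes 10, 21 and 22 and the last window of chromosome 14 came next. Both ends of chromosomes 10, 19 and 21 held at least 34 shared regions.

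On chromosome 10 the regions of the start window lay close to position 0. There 25 of 36 shared regions lay within 0.5 Mb, and at the other end 18 of 46 did. The median fold over local background was lower at the start, at 6.26 in replicate 1 and 6.13 in replicate 2. At the end the medians were 8.44 and 7.41. These are ratios to background, and the read heights of both windows were not compared.

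The sparsest window was the start of chromosome 24, with 10 shared regions from 40 and 13 peaks. In it 7 of 10 lay within 0.5 Mb, and the longest stretch between neighbours was 546 kb. The end of chromosome 5 and the start of chromosome 16 held 13 each, the start of chromosome 23 held 14 and the end of chromosome 9 held 15. In the chromosome 9 window, 9 of 15 lay within 0.5 Mb of the end. The outermost 0.5 Mb held 7 at the end of chromosome 5 and 5 at each of the starts of chromosomes 16 and 23. None of these sparse windows was thus empty within 0.5 Mb. Windows at the last side are measured from a peak. On chromosome 9 that peak was part of a member, so this outer edge could not be empty. The longest stretch between neighbouring shared regions inside any end window was 889 kb, in the last 2 Mb of chromosome 7. Stretches from the innermost shared region to the 2 Mb limit were not counted in these values. At the start of chromosome 24, where no shared region lay from 1.5 to 2 Mb, that stretch was longer.

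**Figure D3:**
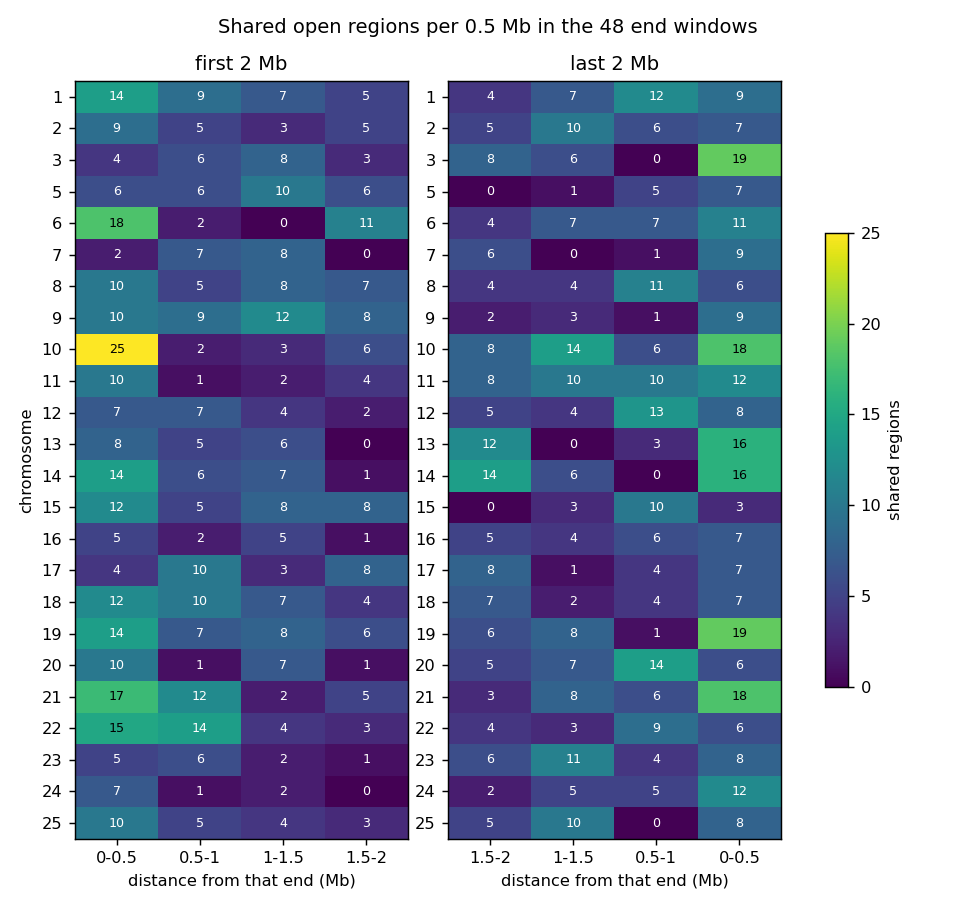
Number of shared open regions in each 0.5 Mb of the first 2 Mb (left) and the last 2 Mb (right) of 24 chromosomes, by distance from that end in Mb, with colour and printed count giving the same value. The outermost column on each side holds 248 regions in all, with the highest count, 25, at the start of chromosome 10.

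Members within 0.5 Mb of an end stood closer together than interior regions. Neighbouring shared regions within 0.1 Mb of an end lay a median of 12.6 kb apart (interquartile range 6.28 to 26.4 kb). Gaps were counted inside each stretch only, so none here could exceed 0.1 Mb, whereas interior gaps ran to 2506 kb. Within 0.5 Mb the median was 22.2 kb, from 0.5 to 2 Mb it was 38.7 kb, and in the interior it was 42.8 kb (interquartile range 14.4 to 115 kb). Gaps to the preceding shared region, not cut at the edge of a stretch, gave larger medians near the ends. They were 15.9 kb within 0.1 Mb, 23.7 kb within 0.5 Mb, 42.1 kb from 0.5 to 2 Mb and 42.9 kb in the interior. The nearest shared region on either side lay a median of 11.7 kb away within 0.5 Mb. It was 20.2 kb away from 0.5 to 2 Mb and 18.4 kb away in the interior. Of members within 0.5 Mb of an end, 11.9% had no other shared region within 50 kb on either side (95% Wilson interval 9.33 to 15). In the interior 23.3% stood alone in this way (22.6 to 24.1).

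Crowded surroundings, meaning 5 or more shared regions within 50 kb on either side with the region itself counted, held 25.6% of members within 0.5 Mb of an end (95% Wilson interval 22.0 to 29.6). They held 12% of members from 0.5 to 2 Mb and 14.4% of interior regions. Very close pairs had similar shares in both. Of members within 0.5 Mb of an end, 9.07% had a neighbour with its midpoint within 1 kb (6.85 to 11.9), and of interior regions 9.11% did (8.61 to 9.64). With regions less than 1 kb apart joined into 1, the density within 0.5 Mb was 2 times that of the interior (95% exact interval 1.82 to 2.19).

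The densest 100 kb stretches in the end windows, picked after their counts were seen, held 9 shared regions each. At the start of chromosome 10, 9 regions lay between 109808 and 202431, with folds of 3.78 to 8.37 for replicate 1 and 4.86 to 6.86 for replicate 2. Near the end of chromosome 19, 9 lay between 48437596 and 48532963, with folds from 5.03 to 15.8 and from 4.67 to 11.3. About 1 Mb from the end of chromosome 1, 9 lay between 57865865 and 57954622, with folds from 4 to 11.6 and from 4.85 to 6.80. The highest fold in the chromosome 19 stretch was above the upper quartile of members in both replicates, 12.5 and 9.24, and those in the other stretches were below it.

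Median strength was close between members and interior. The fold enrichment, which the authors' peak caller gave as summit pileup over local background, had a median of 8.47 in replicate 1 for members and 8.61 for interior regions. In replicate 2 the medians were 6.97 and 6.92. The ratio of members to interior was 0.984 in replicate 1 and 1.01 in replicate 2, a mean of 0.996 ± 0.0163 (SD, n = 2). Interquartile ranges in replicate 1 were nearly the same, 6.26 to 12.5 for members against 6.29 to 12 for the interior. Within 0.5 Mb the medians were 8.20 and 6.97.

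The summit itself was taller at the outermost members, as was the background around it. Within 0.1 Mb of an end the median summit pileup, the number of extended reads over the summit, was 34 for replicate 1 and 17 for replicate 2. In the interior these medians were 27 and 14. The local background at the same members had a median of 3.08 and 1.36 extended reads per position, against 2.26 and 1.08 in the interior. From 0.5 to 2 Mb it was 2.08 and 0.960, below the interior. Both libraries showed the same order.

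Most of these background values move in steps of 0.02, the step of reads extended by 200 bp and counted over 10 kb. Such a span can hold the peak itself and other open sites. Where several pileups matched a peak, the step of 0.02 helped to choose among them, so there it was set and not observed. At peaks with no other peak of their list within 10 kb and a fold of 4 to 8, the background within 0.5 Mb had a median of 1.40 extended reads in replicate 1, against 1.36 in the interior. In replicate 2 it was 0.84 against 0.8. The replicate 1 medians lay near the genome-wide background of 1.32, which was the lower quartile in each zone. Within 0.1 Mb of an end the medians were 1.44 and 0.9, from 35 and 44 such peaks. Such peaks were 34.7% of replicate 1 peaks within 0.5 Mb of an end before the limit on fold, and 50.0% of those in the interior. The part of background coverage in the density was not tested.

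Widths were also close. The merged members had a median width of 470 bp (interquartile range 343 to 625), and interior regions 461 bp (339 to 609). Wide regions of at least 1000 bp made up 4.23% of members within 0.5 Mb of an end (95% Wilson interval 2.79 to 6.39). They made up 1.42% from 0.5 to 2 Mb (0.795 to 2.53) and 2.13% in the interior (1.88 to 2.40). The first of these is 21 regions. Within 0.1 Mb 10 of 122 members were as wide, or 8.20% (4.51 to 14.4).

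**Figure D4:**
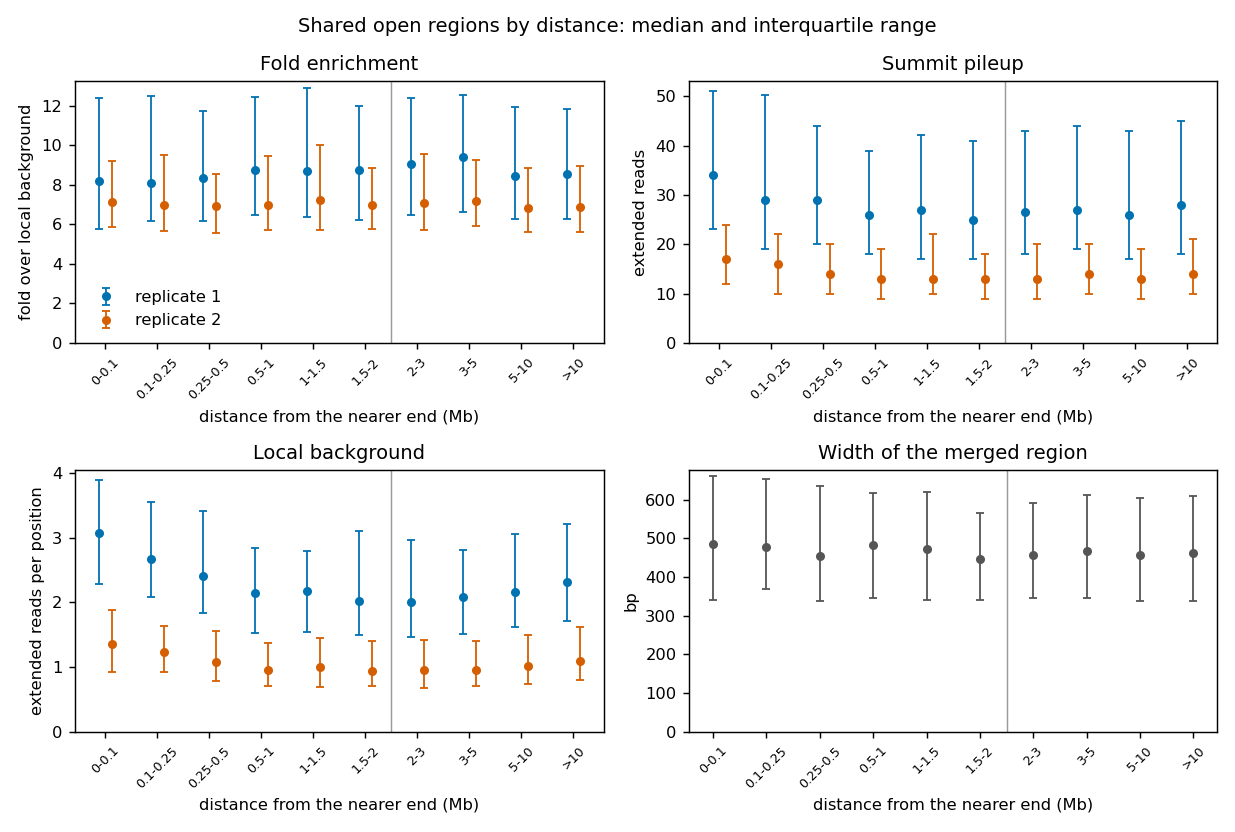
Fold enrichment, summit pileup in extended reads, local background in extended reads per position and width in bp of shared regions, by distance from the nearer chromosome end in Mb. Points are medians and bars interquartile ranges, blue for replicate 1, orange for replicate 2 and grey for the merged region; the grey line marks 2 Mb. Pileup and background are highest in the outermost step, with medians of 34 and 3.08 in replicate 1, while fold and width differ little between steps.

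Some members were among the strongest sites of the genome. Ranked by the lower fold of the replicates, 3 of the 10 strongest shared regions of the 24 chromosomes were members, as were 17 of the strongest 100 (95% Wilson interval 10.9 to 25.5%). Members were 9.57% of all ranked regions. Among the strongest 500, 54 were members, or 10.8% (8.37 to 13.8). Of the strongest 1000, 113 were, or 11.3% (9.48 to 13.4). Each of these wider cuts has an interval that includes 9.57%. By replicate 1 alone the highest fold was in the interior, 38.3 against 32.5 for the highest member.

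The first by this ranking lay 52.1 kb from the last peak of chromosome 17, at 53292511 to 53292959. Its fold was 32.5 in replicate 1 and 25.3 in replicate 2, from summit pileups of 565 and 162. Second among the members came a site on the other end of chromosome 17, at 1610349 to 1611143, with pileups of 236 and 106. The third was on chromosome 3 at 1338103 to 1338598, with pileups of 169 and 80. These members ranked 1, 3 and 5 in the whole.

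On chromosome 24 the region at 40624929 to 40625580, 1603 kb from the end, had folds of 29.5 and 20.1. The region on chromosome 11 at 43334280 to 43335060 had folds of 23.0 and 19.6. On chromosome 8, 1153699 to 1154457 had 25.9 and 19.5. A region on chromosome 19 at 48144500 to 48145100 had 25.2 and 19.5. In each of these the replicate 1 fold was the higher, and the order of the replicates was the same for all 10 strongest members. The lower fold that ranked them was thus that of replicate 2. Median folds had this order too, at 8.47 and 6.97 for members and 8.61 and 6.92 in the interior.

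Of the other 3, the region at 44951553 to 44952269 of chromosome 23 had folds of 24.3 and 19.0. The one at 800230 to 800858 of chromosome 22 had 22.6 and 18.7. The last, near the end of chromosome 14 (50474905 to 50475531), had 27.2 and 18.5. Of the 10, 1 lay within 0.5 Mb of an end, where 39.1% of all members lay. Whether the strongest members lay farther in than the others was not tested. Regions with a fold of at least 16 in both replicates made up 1.61% of the members within 0.5 Mb (95% Wilson interval 0.819 to 3.15) and 1.61% of interior regions (1.40 to 1.85). From 0.5 to 2 Mb they made up 2.71% (1.78 to 4.11), and from 2 to 4 Mb, outside the windows, 2.72% (1.84 to 4.02).

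The outermost members were ordinary peaks for the most part. On chromosome 24 a region began at the first base of the assembly and ran to 641, with folds of 19.2 and 11.2 and pileups of 67 and 21. The next from position 0 was on chromosome 6 at 5110 to 5666, with folds of 4.07 and 5.09 and a pileup of 10 in each replicate. On chromosome 13, 8616 to 8915 had folds of 12.7 and 7.39. The region at 9377 to 9802 of chromosome 3 had 7.01 and 6.48. The fifth, at 11239 to 12331 of chromosome 18, had 9.31 and 10.2. Folds of these 5 members thus ran from 4.07 to 19.2 in replicate 1.

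At the other side, the last peak of chromosome 14, at 51934557 to 51935221, had folds of 21.4 and 15.3. That of chromosome 12, at 49214671 to 49215194, had 13.5 and 7.78. Chromosome 24 ended in a member at 42228113 to 42228614 with 9.22 and 6.67, so this chromosome had a shared region at the outermost point of both sides. Chromosome 1 ended in a member at 58869288 to 58869537 with folds of 8.17 and 6.38. The last member of chromosome 13 spanned 51779081 to 51779427, with folds of 5.37 and 6.4. It was the weakest of the 5 in replicate 1 only.

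The widest member lay on chromosome 5 at 825923 to 827943 and measured 2021 bp. Its folds were moderate, 9.18 and 9.59, while its pileups of 430 and 220 stood on local backgrounds of 45.9 and 22.0 extended reads per position. That background was far above the median of members, 2.27 and 1.06, in both libraries. It can include reads of the region itself, and the part of these reads in the background and the fold was not tested. The next, of 1417 bp, spanned 509712 to 511128 near the start of chromosome 15. One of 1371 bp spanned 48357598 to 48358968 near the end of chromosome 19. The start of chromosome 13 held one of 1292 bp at 1050831 to 1052122, and one of 1274 bp covered 56880536 to 56881809 of chromosome 9. Their folds ran from 8.51 to 13.1 over both replicates. The first 3 of these 4 were merged from more than 1 peak of a list, and the last of them ended its chromosome. Over all members, 4.72% were merged in this way, against 4.33% of interior regions.

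Regions on either side of the 2 Mb limit had folds from 3.68 to 12.4 over both replicates. The lowest, in replicate 2, was below the lower quartile of the interior there, 5.625. The members closest to it from within lay 1998 kb from the start of chromosome 19, with folds of 12.4 and 5.70, and 1996 kb from the end of chromosome 11, with 10 and 8.62. Just outside it lay regions on chromosomes 21 and 14, each 2002 kb from an end, with folds of 7.76 and 3.68 and of 7.72 and 6.02.

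Peaks near the ends were found again in the other library in shares close to those of the interior, with the larger gap in replicate 1. Of 1441 replicate 2 peaks in the end windows, 1280 overlapped a peak of replicate 1, which is 88.8% (95% Wilson interval 87.1 to 90.4). In the interior 87.7% did (87.1 to 88.2). Of 2932 replicate 1 peaks, 45.1% overlapped a peak of replicate 2 (43.3 to 46.9), against 41.8% in the interior (41.2 to 42.3). Within 0.5 Mb of an end this share was 50.4% (47.3 to 53.4).

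At the same summit pileup the order was not kept. Replicate 1 peaks with pileups of 11 to 15 were found again in 27.2% of 235 cases within 0.5 Mb of an end (95% Wilson interval 21.9 to 33.3) and in 21.0% of 8241 in the interior (20.1 to 21.9). With pileups of 31 to 50 the shares were 83.0% of 165 (76.6 to 88.0) and 89.4% of 3227 (88.3 to 90.4). With more they were 95.7% of 115 (90.2 to 98.1) and 98.3% of 2437 (97.7 to 98.7). In replicate 2 the outermost peaks with pileups of at most 9 were found again in 75.7% of 111 cases (66.9 to 82.7), against 68.9% of 4059 (67.4 to 70.3). With pileups of 13 to 15 the shares were 87.7% of 73 (78.2 to 93.4) and 95.5% of 1937 (94.5 to 96.3). In the other classes of replicate 2 they lay closer together, at 87.5% and 89.7% for 10 to 12, 95.2% and 97.5% for 16 to 20, 98.9% and 99.3% for 21 to 30, and 100% and 99.9% above. In replicate 1 the share was thus higher at the very ends than in the interior up to a pileup of 15 and lower above it, and neither difference was tested.

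**Figure D5:**
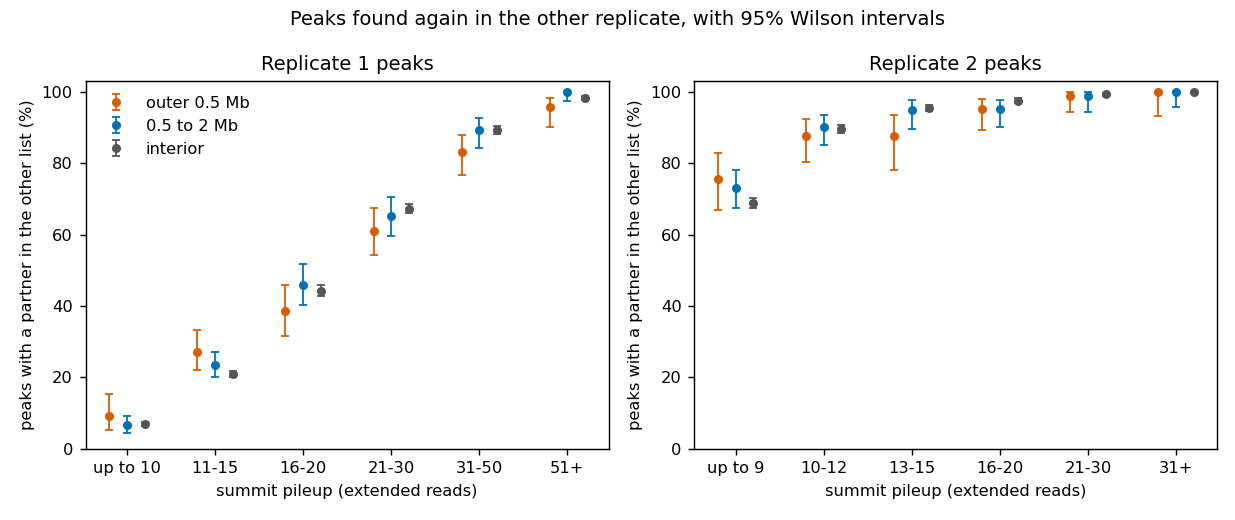
Share of peaks with a partner in the other list in percent, by summit pileup in extended reads, for peaks within 0.5 Mb of a chromosome end (orange), from 0.5 to 2 Mb (blue) and in the interior (grey). Bars are 95% Wilson intervals for counting error. The share climbs with pileup in all 3 zones, and at pileups of 31 to 50 in replicate 1 it is 83.0% within 0.5 Mb and 89.4% in the interior.

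Member heights were compared between the replicates pair by pair. Over 1210 members made of 1 peak in each list, the median ratio of the replicate 1 pileup to the replicate 2 pileup was 1.94 (interquartile range 1.56 to 2.46). Over 11478 interior pairs the median was 2 (1.56 to 2.52). The summits of member pairs lay a median of 29 bp apart, against 28 bp in the interior. In 89.3% of member pairs the summits were within 150 bp of each other.

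Summed over pairs, pileups in replicate 1 were 2.12 times those in replicate 2. The split of reads in each pair was compared with that ratio by an exact binomial test, two-sided and adjusted after Benjamini and Hochberg over all 13094 pairs of the genome. The test compares 2 libraries, treats extended reads as independent and covers counting error only. Peaks called in 1 library only could not enter it. In the end windows these were 1611 peaks of replicate 1 and 161 of replicate 2. Only 330 of the 1210 member pairs held 60 or more extended reads over both replicates, so the counts of most pairs could show large differences only, and a pair that did not pass is not shown to be equal. Of the member pairs 3 passed an adjusted p of 0.05, or 0.248%, and over all pairs 50 passed, or 0.382%. All 3 were higher in replicate 1, a direction in which 0.344% of all pairs passed, and in the other direction 0.0382% of all pairs did. At an unadjusted p under 0.05 there were 82 of the 1210 member pairs, and 837 of all 13094 pairs. The members' share is near the background and says nothing particular of them.

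The region on chromosome 17 at 53292511 was the first, with 565 and 162 extended reads (exact binomial test, adjusted p = 7.12e-06). The second lay 59.4 kb from the end of chromosome 3, at 62288912 to 62289197, with 150 and 23 (exact binomial test, adjusted p = 1.71e-05). Its fold was 30.6 in replicate 1 and 13.5 in replicate 2, and it was the outermost shared region of that side. The third, on chromosome 22 at 37688352 to 37688905, had 141 and 33 (exact binomial test, adjusted p = 0.0434). With depth taken from the genome background, the third no longer passed (adjusted p = 0.141), and its adjusted p ran from 0.0110 to 0.141 over the alternatives. The next member, at 44162797 to 44163346 of chromosome 21, had 58 and 9 and did not pass (exact binomial test, adjusted p = 0.133). Nor did the one after it, at 1063198 to 1063546 of chromosome 18, with 61 and 10 (exact binomial test, adjusted p = 0.138).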

How the data were processed

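Each replicate has its own peak list, deposited by the authors, so calling was done per library. The build is GRCz10 per the submitters' processing notes, which also name, with no role or order, the tools MACS2, Picard, Bowtie2 (2.5.0), HTSeq (0.8.0), SAMtools (1.9) and DESeq2. Settings of the peak caller and any shift of reads for the transposase are not given in the sources used here. Another shift would move edges by a few bases, far less than the distances used. The deposited fold enrichment is a ratio of summit pileup to local background. The deposited −log10 p and −log10 q are the caller's, and the deposited score is 10 times −log10 q, cut to a whole number, in 100% of peaks.

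Summit pileups and backgrounds were recovered from fold and −log10 p (fold as pileup plus 1 over background plus 1, p as the upper Poisson tail). A whole number of reads gave the deposited −log10 p within 0.0002 for 33700 of 33700 and 15814 of 15814 nuclear peaks. Where several whole numbers matched, the one with a background nearest a multiple of 0.02, or nearest the lowest background, was kept. The number of peaks so decided is not given here. Read totals were not used, so relative depth is 2.28 by background or 2.12 by summed pileups.

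Regions were merged and placed as described above. A merged region takes the highest fold and pileup of its peaks in each list. Chromosome lengths run to the last peak end and include assembly gaps, which were not masked. Density ratios carry exact conditional 95% intervals and shares Wilson intervals. The scripts were tested on simulated data. Python 3.11.15, SciPy 1.17.1 and pandas 2.3.3 were used.

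The members, windows and tests were chosen with earlier results of these data known. Regions named by position are the 10 strongest by the lower fold, the 5 closest to each end, the 5 widest, those with the smallest adjusted p in the height test and those at the 2 Mb limit. Windows named are the 5 densest and 5 sparsest, with ties. Other stretches were picked after their values were seen. No sequence or gene is given, because no genome or annotation of GRCz10 was used here.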

Additional observations from a re-analysis of the deposited data

Results flagged for a closer look

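The ends of chromosome 4 were left out of all comparisons, yet they hold shared regions above the limit of 3 that a count of 0 allows. The first 2 Mb held 34 shared regions, or 17 per Mb, with 11 of them within 0.5 Mb of position 0. The last 2 Mb held 22, or 11 per Mb, with 6 within 0.5 Mb of the last peak end. Mitochondrial peaks, 8 in replicate 1 and 7 in replicate 2, also lay outside the comparisons.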

How the results depend on the processing

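No paired analysis was possible because all samples form 1 group. Alternatives gave 109 values, and 80 of them stayed near the reported one, taken as within 1.5 times for counts, inside the 95% interval for density ratios and shares, and inside the SD of the replicates for ratios of medians. For the spacing ratio this SD was that of the lists alone, which were themselves among the alternatives. The other 29 values moved farther. Why they moved was not tested, apart from windows or peak sets that differ by construction. The ratio of end windows to interior was 1.57, 1.20 and 1.04 with windows of 1, 3 and 5 Mb, and 1.41 against the regions from 2 to 10 Mb only. With windows of 0.5 Mb it was 2.0 and without the outermost 0.5 Mb 1.05, both chosen after seeing the data. The lists alone gave 1.20 to 1.26. Leaving out each chromosome gave 1.26, without chromosome 10, to 1.31. Chromosomes denser at their ends numbered 16 with windows of 5 Mb and 23 with windows of 1 Mb, against 20 as reported. Both counted as near it, since the limit of 1.5 times is wide for a count of at most 24. Members numbered 530 at a −log10 q minimum of 10, 777 and 2612 with windows of 1 and 5 Mb, and 1441 to 2932 in the lists alone. The share of replicate 1 end peaks found again was 47.6% and 42.9% at −log10 q minimums of 5 and 10, 68.9% with lists of equal length, 36.6% with reciprocal overlap, 38.9% with summits within 150 bp, and 47% and 43.1% with windows of 1 and 5 Mb. For replicate 2 end peaks it was 91.1% and 96.2% at those minimums, 71.8% with equal lengths, 74.5% with reciprocal overlap and 79.2% by summits. The fold ratio, 0.996 as reported and without a test, crossed to the other side of 1 in the 4 alternatives that moved it, to 1.02 at a minimum of 10, 1.04 with windows of 5 Mb and 1.03 to 1.07 in the lists alone, and the spacing ratio, 0.778 as reported, was 0.640 and 0.971 with windows of 1 and 5 Mb. The ratio of the first to the last windows stayed within its interval in all 12 alternatives run for it, but its own interval lay below 1 with windows of 3 Mb (0.826 to 0.997) and 5 Mb (0.851 to 0.993). Members differing in height numbered 2 with the background depth ratio and 3 in the other 2 alternatives. Of replicate 1 peaks with a pileup of 10 or less, 9.16% of 131 within 0.5 Mb of an end and 6.87% of 6990 in the interior were found again, and the part of the lower depth of replicate 2 in this was not tested.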
